A study of Rattus norvegicus with 12 samples.

Results

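Genes that mark the mesothelium, the thin epithelial sheet over the outer surface of the heart and the other organs of the body cavities, were followed in rat atrial appendages. The members were 9 genes, namely mesothelin (Msln), the uroplakins Upk3b and Upk1b, the keratins Krt19, Krt8, Krt18 and Krt7, the transcription factor Wt1 and the leucine-rich repeat gene Lrrn4. All probe sets that the array annotation assigned to a member by a single symbol were taken, whatever their values. This gave 11 of the 31042 probe sets tested, for 8 of the 9 genes, and no probe set carried the symbol Upk3b. Wt1 had 2 probe sets, Lrrn4 had 3 and the other genes had 1 each.

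The RNA came from atrial appendages, right or left, of male rats of the Sprague-Dawley strain. The rats had an aorto-caval shunt, a passage from aorta to vena cava that puts a volume load on the heart, or the sham surgery, and tissue was taken at 28 days. Each atrium and each surgery formed a group of 3 arrays, 12 in 4 groups. Each array held a pool of 2 tissues, no group is labelled with a genetic change, and the age of the rats is not given in the sources used here. The pools of a group are described as biological replicates, and the p-values rest on the spread between them. Values are log2 RMA values as the authors deposited them, so that a difference of 1 is 2-fold. Differences are given with the standard error (SE) of the limma fit over all 12 arrays, and adjusted p-values are Benjamini-Hochberg values of that fit over all 31042 probe sets, with a threshold of 0.05.

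The epicardium is the mesothelial layer of the heart. In the embryo it gives rise to fibroblasts and mural cells of the heart by a transition from epithelium to mesenchyme, a programme in which Wt1 takes part, and in the adult it is a mostly quiet layer. Mesothelial cells carry the keratins of simple epithelia, and mesothelin and uroplakins on their surface. An array of whole tissue cannot tell fewer cells of a type from less RNA per cell.

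The sources name the tissue as atrium, and one entry of the labels names ventricles as well. Of 5 atrial cardiomyocyte markers all had a probe set, and their mean log2 level lay between 12.2 and 12.52 on the 12 arrays. The mean of 5 ventricular markers was uneven: 7.99 to 8.18 on right atrium sham arrays, 8.56 to 9.69 on right atrium shunt arrays, 5.94 to 6.28 on left atrium sham arrays and 6.59 to 7.02 on left atrium shunt arrays. The third array of the left atrium shunt group lay far from the other two, at -26.7 on the second principal component against 14.95 and 13.62. The mean of its 7 adipocyte markers was 6.88, against 5.55 and 6.13. No detection calls were used here, so a low level cannot be told from absence.

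Most of the 11 member probe sets were higher in the left than in the right atrium. In sham rats, 8 of the 11 probe sets, which belong to 7 genes, passed the threshold upward and none downward, where 20.1% of all probe sets passed upward and 16.1% downward. Counted by the brightest probe set of each gene, 6 of the 8 genes were higher and none lower. Over all genes counted so, 22.2% were higher and 15.4% lower. The median difference of the 11 was 0.53, against 0.02 over all probe sets. Of the 11, Msln showed the largest difference, at 2.62-fold, and Krt19 followed at 1.91-fold. Seen by arrays, 8 of the 11 had all left sham values above all right sham values, as did 27.2% of all probe sets. These were the called ones without Krt18 and with Wt1 1369695_at.

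Msln encodes a glycoprotein anchored in the mesothelial cell membrane. It lay at 7.36, 7.47 and 7.15 on the right atrium sham arrays and at 8.75, 8.84 and 8.56 on the left atrium sham arrays. On the right atrium shunt arrays it lay at 7.50, 7.28 and 7.14, and on the left atrium shunt arrays at 8.68, 8.84 and 8.08. All 6 left arrays were above all 6 right arrays. The left minus right difference was 1.39 ± 0.17 in sham (SE, 3 pools in each group, limma adjusted p = 5.35e-05) and 1.23 ± 0.17 in shunt rats (limma adjusted p = 0.000184).

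Upk1b encodes a tetraspanin of the uroplakin family, which forms plaques on the bladder surface and is also made by mesothelium. Its sham values were 7.37, 7.83 and 7.24 in the right atrium and 8.06, 8.46 and 8.07 in the left, without overlap. Its shunt values were 7.78, 7.62 and 7.39 in the right atrium and 8.36, 8.48 and 7.46 in the left, where replicate 3 fell among the right atrium values. The difference was 0.71 ± 0.24 in sham (limma adjusted p = 0.0329) and 0.50 ± 0.24 in shunt rats (limma adjusted p = 0.114). Without left atrium shunt replicate 3 the difference in shunt rats was 0.82 (limma adjusted p = 0.00284). The call in sham rats was lost without right atrium sham replicate 1 or 3 or any 1 left atrium sham replicate, with differences of 0.58 to 0.78 and adjusted p-values of 0.0501 to 0.117.

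**Figure D1:**
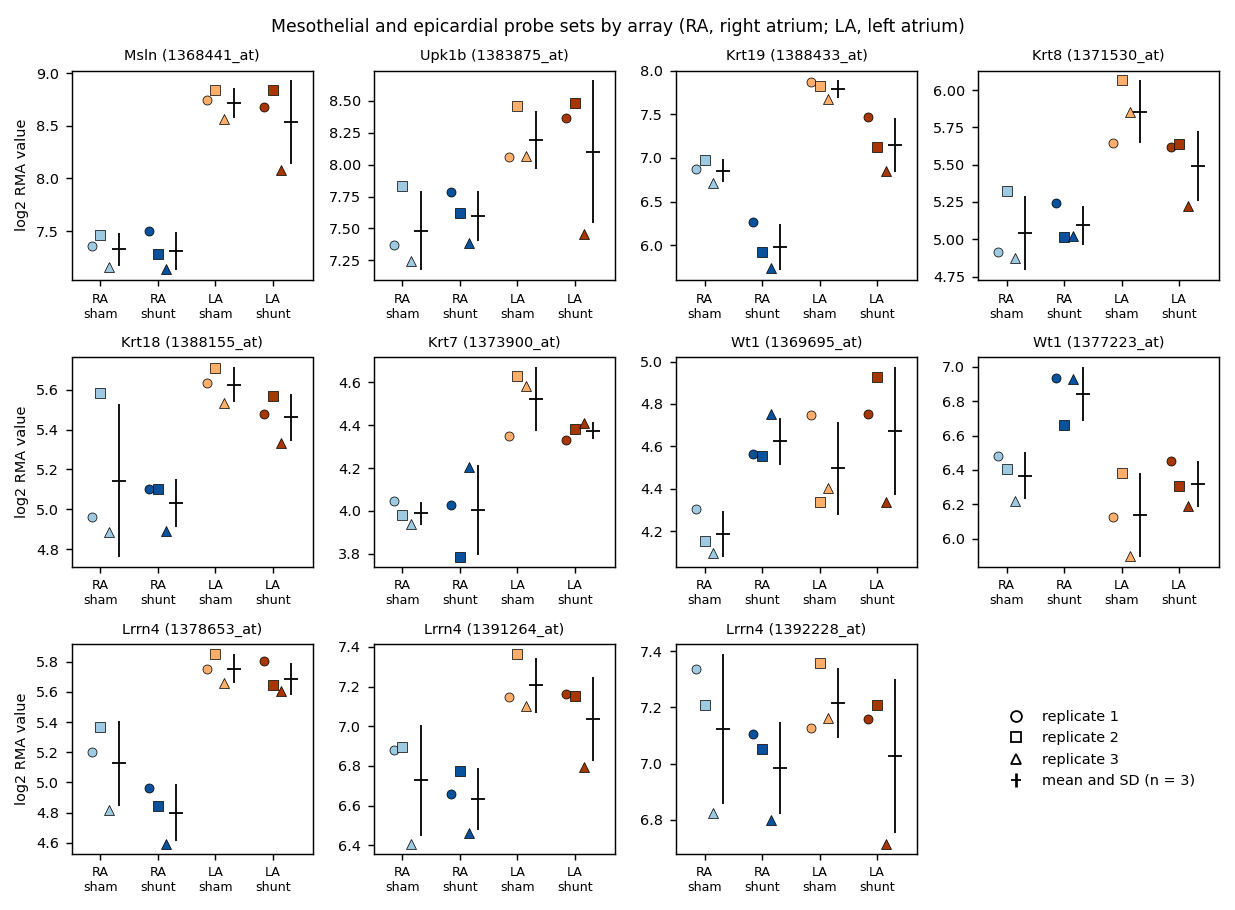
Log2 RMA value (vertical axis, its own range in each panel) of the 11 probe sets in the 4 groups; each symbol is an array and the bar is the mean with the SD of 3 arrays. Msln on the left atrium arrays lies at 8.08 to 8.84, above the right atrium arrays at 7.14 to 7.50, and Krt19 is lower in the shunt than in the sham group of each atrium.

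Keratins form filaments from pairs of a type I and a type II chain. Krt8 (type II) and Krt18 (type I) are the usual pair of simple epithelia, and Krt7 (type II) and Krt19 (type I) join them in mesothelium and ducts. All 4 keratins were higher in the left atrium of sham rats. The promoter windows of the pair whose arrays ran most alike among the keratins, Krt8 and Krt18, follow from RefSeq (build GRCr8), 250 bases before to 50 after the start that the promoter table gives, with capitals for matches to the TATA box TATAAA, the GC box GGGCGG and the TEAD core GGAATG on either strand.
Krt8 (chr7:135010290-135010589, minus strand): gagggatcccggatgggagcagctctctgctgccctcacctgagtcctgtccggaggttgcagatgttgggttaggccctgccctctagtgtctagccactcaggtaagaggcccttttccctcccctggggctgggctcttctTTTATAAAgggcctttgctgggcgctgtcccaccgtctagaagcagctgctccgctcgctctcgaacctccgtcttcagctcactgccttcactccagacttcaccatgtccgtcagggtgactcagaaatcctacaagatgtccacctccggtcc
Krt18 (chr7:135035918-135036217, plus strand): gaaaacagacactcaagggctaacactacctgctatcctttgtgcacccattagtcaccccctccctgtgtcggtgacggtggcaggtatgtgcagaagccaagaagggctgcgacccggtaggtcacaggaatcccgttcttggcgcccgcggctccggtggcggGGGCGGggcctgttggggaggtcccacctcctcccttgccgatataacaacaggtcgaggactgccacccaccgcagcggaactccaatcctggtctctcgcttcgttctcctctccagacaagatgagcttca

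In the Krt8 window the TATA box matched on both strands, the matches overlapping at positions -106 and -104 from the start, and in the Krt18 window the GC box matched once, at -84. Over the 33469 promoters of this length, 14.2% held the TATA box letters, 33.1% the GC box and 14.2% the TEAD core. The motifs were chosen after the values were seen, and a match is a stretch of letters, not a site. Promoters of 5 of the 8 genes with a probe set were in the table. Of these 5, the TEAD core letters were in the windows of Upk1b (at -178) and Lrrn4 (at -214), which are not printed, and in neither keratin window.

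Krt19 lay at 6.88, 6.97 and 6.72 on the right atrium sham arrays and at 7.87, 7.83 and 7.68 on the left. The difference of 0.94 ± 0.15 in sham rats (limma adjusted p = 0.000481) was 1.17 ± 0.15 in shunt rats (limma adjusted p = 0.000132), and the arrays did not overlap in either. Krt8 lay at 4.92, 5.33 and 4.88 on the right and at 5.64, 6.07 and 5.86 on the left atrium sham arrays, again without overlap. Its difference was 0.82 ± 0.15 in sham (limma adjusted p = 0.00103) and 0.40 ± 0.15 in shunt rats, where it missed the threshold (limma adjusted p = 0.0518). There it passed without left atrium shunt replicate 3 (0.53, limma adjusted p = 0.0126), and also without right atrium shunt replicate 1, right atrium sham replicate 2 or left atrium sham replicate 1 or 2, with adjusted p-values of 0.0341 to 0.0499.

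Krt18 and Krt7 differed less. Krt18 was 4.96, 5.58 and 4.88 on the right and 5.64, 5.71 and 5.53 on the left atrium sham arrays, so that right replicate 2 reached into the left range. The difference was 0.48 ± 0.15 in sham (limma adjusted p = 0.0245) and 0.43 ± 0.15 in shunt rats (limma adjusted p = 0.04). It lost the threshold in sham rats without right atrium sham replicate 1 or 3 or left atrium sham replicate 1 or 2 (0.35 to 0.48, adjusted p up to 0.107). In shunt rats it lost it without any 1 right atrium shunt replicate, left atrium shunt replicate 1 or 2 or left atrium sham replicate 1 (0.36 to 0.47, adjusted p up to 0.13). Krt7, at 3.94 to 4.05 on the right and 4.35 to 4.63 on the left atrium sham arrays, did not overlap and differed by 0.53 ± 0.10 (limma adjusted p = 0.00163). In shunt rats Krt7 differed by 0.37 ± 0.10 (limma adjusted p = 0.0146), and by 0.26 without right atrium shunt replicate 2 (limma adjusted p = 0.0685).

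Lrrn4 encodes a membrane protein with leucine-rich repeats that serves as a mesothelial marker. Its 3 probe sets did not give the same difference. Probe set 1378653_at lay at 4.82 to 5.37 on the right and 5.66 to 5.85 on the left atrium sham arrays, a difference of 0.63 ± 0.13 (limma adjusted p = 0.00276), and of 0.88 ± 0.13 in shunt rats (limma adjusted p = 0.000327). Probe set 1391264_at differed by 0.48 ± 0.14 in sham (limma adjusted p = 0.0211) and 0.41 ± 0.14 in shunt rats (limma adjusted p = 0.0425). The brightest, 1392228_at, differed by 0.09 ± 0.15 (95% interval -0.24 to 0.42) and 0.04 ± 0.15 (-0.29 to 0.37), with overlapping arrays. Probe set 1391264_at lost its call in sham rats without right atrium sham replicate 3 (0.32, adjusted p = 0.0915 by limma) or left atrium sham replicate 2 (0.40, adjusted p = 0.0809 by limma). In shunt rats it lost it in 6 of the 12 exclusions of an array, namely right atrium shunt replicate 1 or 3, left atrium shunt replicate 1 or 2 and left atrium sham replicate 1 or 3 (0.32 to 0.42, adjusted p up to 0.148).

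Wt1, the zinc finger factor of the epicardium, was not called higher in the left atrium on either of its probe sets. The brighter Wt1 probe set, 1377223_at, lay at 6.48, 6.40 and 6.22 on the right atrium sham arrays and at 6.13, 6.38 and 5.90 on the left, which overlapped. On the right atrium shunt arrays it lay at 6.94, 6.66 and 6.93 and on the left atrium shunt arrays at 6.45, 6.31 and 6.19, all below the right. The left minus right difference was -0.23 ± 0.13 in sham (limma adjusted p = 0.175) and -0.53 ± 0.13 in shunt rats (limma adjusted p = 0.00614), the opposite direction to the other members. The dimmer probe set, 1369695_at, at 4.10 to 4.93 on all arrays, differed by 0.31 ± 0.14 (limma adjusted p = 0.111) and 0.05 ± 0.14 (limma adjusted p = 0.813). The 2 probe sets thus differed in direction, and their mean differed by -0.24 in shunt rats (limma adjusted p = 0.0934). In sham rats 1377223_at passed without left atrium sham replicate 2 (-0.36, limma adjusted p = 0.0454) and 1369695_at without left atrium shunt replicate 3 (0.31, limma adjusted p = 0.0396).

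In shunt rats, 6 of the 11 probe sets were higher in the left atrium and 1, of Wt1, was lower, where 20.2% of all probe sets were higher and 17.4% lower. The 6 were those of Msln, Krt19, Krt18 and Krt7 and 2 of Lrrn4, and the same 6 were among the 8 that were higher in sham rats. Over all probe sets 12.8% were higher in both. These comparisons share no arrays but share 1 estimate of the spread. By the brightest probe set of each gene, 4 of the 8 genes were higher in the left atrium of shunt rats and 1 lower. Over all genes counted so, 21% were higher and 19.4% lower. The arrays of the left and right shunt groups did not overlap for the 6 probe sets that were higher, as for 27.7% of all probe sets, and for Wt1 1377223_at downward, as for 21.3%. Without right atrium sham replicate 3 the count in sham rats was 5, and without left atrium shunt replicate 3 the counts were 9 in sham and 9 in shunt rats.

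**Figure D2:**
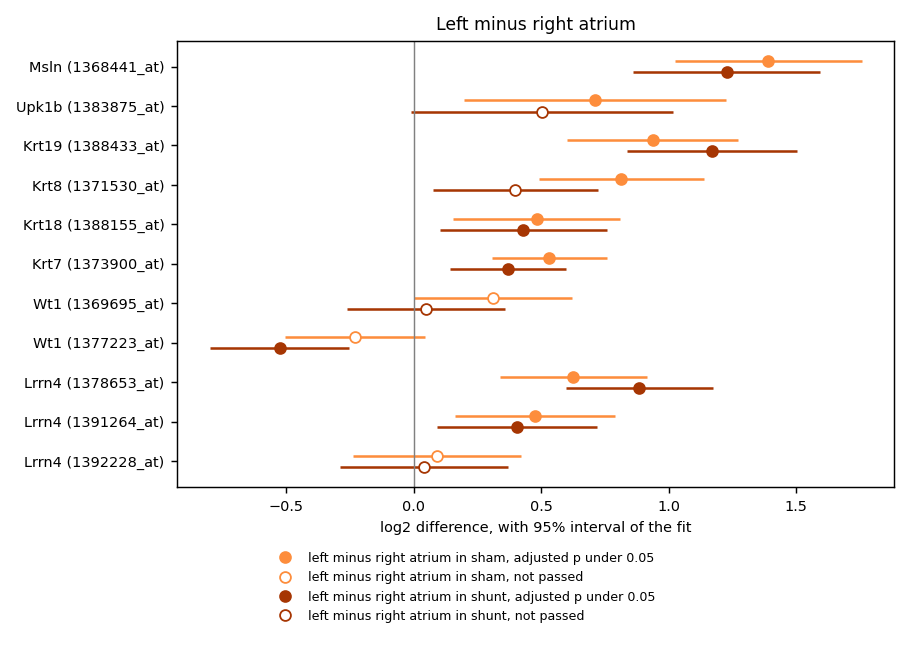
Left minus right atrium log2 difference (horizontal axis) of each probe set in sham and in shunt rats, with the 95% interval of the limma fit; filled points passed the adjusted p threshold. Msln and Krt19 lie farthest to the right in both, and the Wt1 probe set 1377223_at is the one to the left of 0 in both.

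Other genes listed as mesothelial or epicardial, 23 in all and not all confined to these cells, gave a mixed picture. Of the 19 with a probe set, 5 were higher in the left atrium of sham rats, 2 were lower and 12 did not pass, where 22.2% of all 14217 genes, each by its brightest probe set, were higher and 15.4% lower. The list's median difference was 0.04, as was that of all genes. Higher were the complement gene C3 (0.64), the prostacyclin synthase gene Ptgis (0.59), the retinoic acid synthesis gene Aldh1a2 (0.48), Nkain4 (0.45) and the Wnt pathway agonist Rspo1 (0.37). Lower were the semaphorin gene Sema3d (-0.58) and the calcium binding protein calretinin (Calb2, -0.44). Tcf21, a factor of epicardium and fibroblasts, differed by -0.07 ± 0.14 (limma adjusted p = 0.721).

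In shunt rats 6 of the 19 were higher and 1 lower, where 21.0% of all genes were higher and 19.4% lower. C3 (0.79), Nkain4 (0.76), Ptgis (0.53) and Aldh1a2 (0.44) were higher again, together with the annexin gene Anxa8 (0.55) and Pkhd1l1 (0.38), and Sema3d (-0.62) was lower again. Podxl, not called on its brightest probe set, was higher on a dimmer one (1.09 in sham, limma adjusted p = 2.94e-05, and 0.91 in shunt rats, limma adjusted p = 0.000158). Another dimmer Podxl probe set was higher in sham (0.80, limma adjusted p = 0.00791) and did not pass in shunt rats (0.37, limma adjusted p = 0.164). Of 18 other keratins and epithelial genes with a probe set, 4 were higher in the left atrium of sham rats: the desmosome genes Jup (0.65) and Pkp2 (0.35) and the keratins Krt13 (0.50) and Krt14 (0.31). Krt10, a keratin of stratified epithelium, was lower (-0.40). In shunt rats 6 were higher, led by Jup (0.76) and Krt13 (0.69), and Krt10 (-0.61) was lower.

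Genes of the transition from epithelium to mesenchyme went both ways, at counts that can be read against the 22.2% higher and 15.4% lower over all genes in sham rats and 21.0% and 19.4% in shunt rats. Of 12 with a probe set, each taken by its brightest, 4 were higher in the left atrium of sham rats: the growth factor genes Tgfb1 (0.93) and Tgfb2 (0.44), the PDGF receptor gene Pdgfrb (0.74) and fibronectin (Fn1, 0.35). The transcription factor gene Zeb2 (-0.95) and N-cadherin (Cdh2, -0.71), which cardiomyocytes also make, were lower. In shunt rats Tgfb1 (0.52) and Pdgfrb (0.40) were higher, and Zeb2 (-0.62), Cdh2 (-0.54), Zeb1 (-0.45), Twist1 (-0.42) and Pdgfra (-0.28) were lower. Other probe sets of some of these genes passed in the opposite direction. A dimmer Cdh2 probe set was higher in the left atrium (0.45 in sham, limma adjusted p = 0.00721, and 0.61 in shunt rats, limma adjusted p = 0.00123), as was a dimmer Twist1 probe set (0.62, limma adjusted p = 0.00148, and 0.42, limma adjusted p = 0.0143). A dimmer Pdgfrb probe set was lower in sham rats (-0.60, limma adjusted p = 0.01), and a dimmer Tgfb2 probe set was lower in shunt rats (-0.34, limma adjusted p = 0.0114). In shunt rats that Pdgfrb probe set did not pass (-0.07, limma adjusted p = 0.737), and another dimmer one was higher (0.25, limma adjusted p = 0.0458). The brightest Tgfb2 probe set did not pass in shunt rats (0.12, limma adjusted p = 0.34), so its opposed calls lie in different comparisons. The direction of Cdh2, Twist1, Pdgfrb and Tgfb2 is therefore uncertain.

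Markers of other tissues were counted in the same way, against the same shares of all genes. Smooth muscle (higher in the left atrium) and ventricular markers (lower) had the largest shares of called genes in one direction in sham rats. Of 5 smooth muscle markers, Smtn (1.11), Tagln (0.85), Myh11 (0.60) and Acta2 (0.38) were higher in the left atrium of sham rats, and the list mean lay at 7.72 to 7.80 on the left against 7.13 to 7.32 on the right atrium sham arrays. Of 5 ventricular markers 4 were lower in the left, with a difference of -5.69 for Myl2, and a dimmer Myh7 probe set was higher (0.90, limma adjusted p = 0.0468). Of 6 endothelial markers 4 were higher and 1 lower, and of 7 fibroblast markers 3 were higher and 1 lower. Of 7 markers of lung and airway epithelium, which shares keratins with mesothelium, Ager was higher (0.51) and 6 did not pass. A dimmer Sftpb probe set was higher (0.32, limma adjusted p = 0.0169). The lung list mean lay at 4.59 to 4.70 on left and 4.46 to 4.53 on right atrium sham arrays. In shunt rats 2 of the 7 lung markers were higher in the left atrium. The lung list mean was then 4.655 to 4.697 on left and 4.365 to 4.534 on right atrium shunt arrays. Of 7 adipocyte markers 1 was higher, of 6 macrophage markers 1 was lower and of 7 neuron markers none passed in the limma fit. In shunt rats 4 of the 5 smooth muscle markers were again higher in the left atrium, 4 of the 5 ventricular markers and 3 of the 6 macrophage markers were lower, and 3 of the 7 adipocyte markers were higher. Of the 7 neuron markers 4 were higher in the left atrium of shunt rats (Uchl1, Nefl, Nefm and Th). In another comparison, 2 of the 7 (Prph and Uchl1) were higher in shunt than in sham left atria, where 0.751% of all probe sets passed in either direction. The neuron list mean lay at 4.38, 4.55 and 4.99 on left atrium shunt arrays 1, 2 and 3, against 4.17 to 4.33 on right atrium shunt arrays and 4.15 to 4.19 on left atrium sham arrays. The part of these other cells in the left to right differences was not tested.

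The shunt effect in the right atrium uses the same sham arrays as the left to right comparison in sham rats, so the values of one are not independent of the other. After the shunt, Krt19 fell in the right atrium, and it was the one member probe set of 11 past the threshold there, where 1.07% of all probe sets passed downward and 1.9% upward. From sham values of 6.88, 6.97 and 6.72 it lay at 6.27, 5.92 and 5.74 on the shunt arrays, all below the sham range, as were 13.5% of all probe sets. The log2 change was -0.88 ± 0.15 (SE, 3 pools in each group, limma adjusted p = 0.0136), a 1.84-fold lower level. Without right atrium shunt replicate 2 the change was -0.85 (limma adjusted p = 0.0659), and without right atrium sham replicate 2 it was -0.82 (limma adjusted p = 0.0643).

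In the left atrium, Krt19 lay at 7.87, 7.83 and 7.68 in sham and at 7.47, 7.12 and 6.85 in shunt rats, again without overlap, as did 9.21% of all probe sets in this direction. The change was -0.65 ± 0.15 (limma adjusted p = 0.0823) and did not pass. No member passed in the left atrium in the limma fit, where 0.751% of all probe sets did, and 2 of the 11, Krt19 and Krt8, had an unadjusted p under 0.05. Krt19 passed there when left atrium shunt replicate 1 was left out (-0.81, limma adjusted p = 0.0359). Averaged over both atria, Krt19 fell by 0.76 ± 0.11 (limma adjusted p = 0.00258), the one member probe set past the threshold, where 1.55% of all probe sets passed downward, and it passed in all 20 other settings of processing and single-array exclusion run for that comparison. The difference between the shunt effects in the left and right atrium was 0.23 ± 0.22 for Krt19 (limma adjusted p = 0.65). In the limma fit no member passed for that difference and none of the 11 had an unadjusted p under 0.05, and of all probe sets 0.0258% passed.

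**Figure D3:**
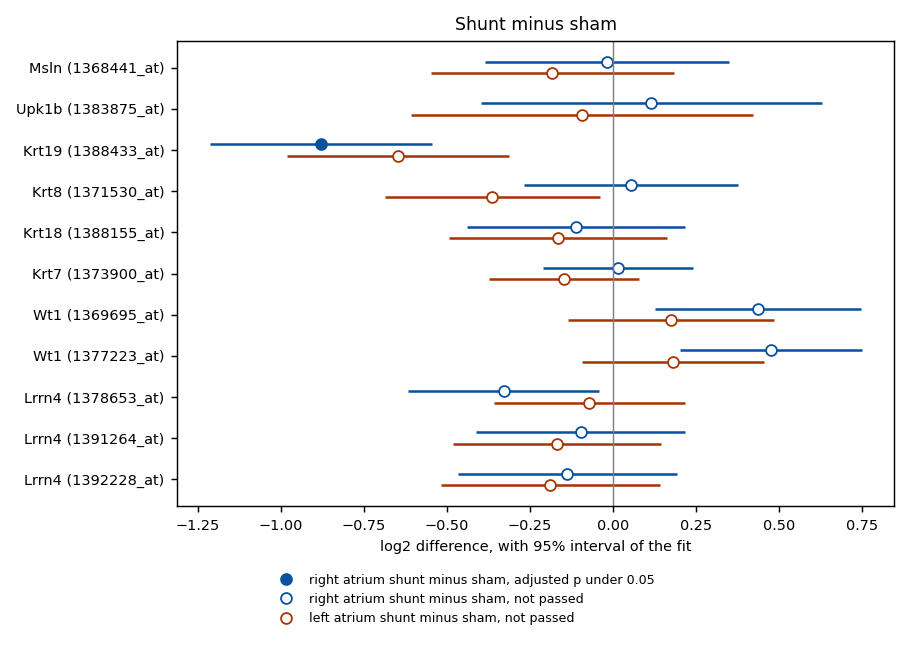
Shunt minus sham log2 difference (horizontal axis) of each probe set in the right and left atrium, with the 95% interval of the limma fit; filled points passed the adjusted p threshold. Krt19 lies farthest below 0 in each atrium (-0.88 right, -0.65 left), and both Wt1 probe sets lie above 0.

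The mean of the ventricular markers was higher in the shunt groups, where Krt19 was lower. On the right atrium shunt arrays their mean was 8.56, 9.69 and 9.56 for replicates 1, 2 and 3, against 7.99 to 8.18 on the sham arrays, and 4 of the 5 rose. A dimmer Myl2 probe set fell (-0.55, limma adjusted p = 0.0418). The ventricular gene Irx4 lay at 4.18 on replicate 1 and at 5.86 and 5.94 on replicates 2 and 3. Krt19 was highest of the shunt group on replicate 1, at 6.27. Replicate 1 was the highest of that group for 8 of the 11 member probe sets, Krt19 among them. The share of all probe sets highest on replicate 1 was not counted. With replicate 1 kept alone in its group, an alternative chosen after seeing the data, the change of Krt19 was -0.59 ± 0.20 (limma adjusted p = 0.284), with the lone array taken to vary like those of the other groups. Its average over both atria was then -0.62 (limma adjusted p = 0.053). In the left atrium the ventricular mean lay at 5.94 to 6.28 in sham and 6.59 to 7.02 in shunt rats. Within the left atrium shunt group, replicate 3 had the lowest ventricular mean (6.59) and also the lowest Krt19 (6.85). The part of ventricular tissue in the change of Krt19 was not tested.

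**Figure D4:**
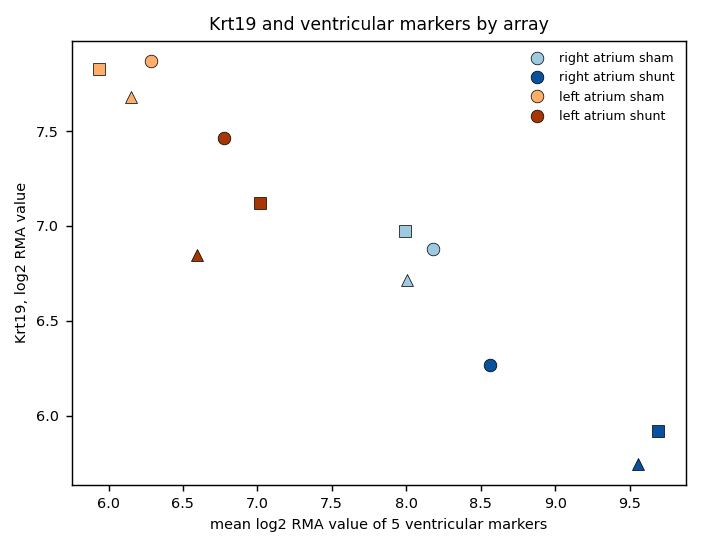
Krt19 (vertical axis, log2 RMA value) against the mean log2 RMA value of 5 ventricular markers (horizontal axis) on each of the 12 arrays; circles, squares and triangles are replicates 1, 2 and 3. The shunt arrays of each atrium lie below and to the right of its sham arrays. Krt19 lies at 6.85 to 7.87 on the left and at 5.74 to 6.97 on the right atrium arrays.

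Apart from Krt19, no member passed for the shunt effect in either atrium. In the right atrium Msln changed by -0.02 ± 0.17 (95% interval -0.39 to 0.35), Upk1b by 0.12 ± 0.24 (-0.40 to 0.63) and Krt8 by 0.05 ± 0.15 (-0.27 to 0.38). Krt18 changed by -0.11 ± 0.15 (-0.44 to 0.22) and Krt7 by 0.02 ± 0.10 (-0.21 to 0.24). In the left atrium Msln changed by -0.18 ± 0.17 (-0.55 to 0.19), Upk1b by -0.09 ± 0.24 (-0.61 to 0.42) and Krt18 by -0.16 ± 0.15 (-0.49 to 0.16). Krt8 changed by -0.36 ± 0.15 (limma adjusted p = 0.306) with shunt values of 5.62, 5.64 and 5.22, just below the sham range of 5.64 to 6.07. Krt7 changed by -0.15 ± 0.10 (-0.37 to 0.08). The 3 Lrrn4 probe sets lay between -0.33 and -0.10 in the right and between -0.19 and -0.07 in the left atrium, and none passed.

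Both Wt1 probe sets were higher in shunt than in sham right atria without passing. Probe set 1377223_at changed by 0.48 ± 0.13 (limma adjusted p = 0.0634) and 1369695_at, from 4.31, 4.15 and 4.10 to 4.56, 4.56 and 4.75, by 0.44 ± 0.14 (limma adjusted p = 0.117). For each, all 3 shunt arrays lay above all 3 sham arrays, as for 14.9% of all probe sets. The call of 1377223_at depended on the setting: it passed in 8 of 21 alternatives, with adjusted p-values over all of them from 0.0292 to 0.182, among them the fits without left atrium shunt replicate 3 (limma adjusted p = 0.0441) or left atrium sham replicate 2 (limma adjusted p = 0.0465). Probe set 1369695_at passed in 3 of 18, among them the fit without left atrium shunt replicate 3 (limma adjusted p = 0.0402). In the left atrium the changes were 0.18 ± 0.13 and 0.18 ± 0.14, with overlapping arrays. Averaged over both atria the changes were 0.33 ± 0.09 (limma adjusted p = 0.0636) and 0.31 ± 0.10 (limma adjusted p = 0.124). Both averages passed without left atrium shunt replicate 3 (0.36 and 0.39, limma adjusted p = 0.0369 and 0.0146), and 1377223_at also without left atrium sham replicate 2 (0.39, limma adjusted p = 0.031).

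Of the 19 further mesothelial and epicardial genes, Ptgis (0.54) and the sialomucin gene Podxl (0.42) rose in the right atrium, the fibulin gene Efemp1 fell by 0.49 and 16 did not pass, where 2.83% of all genes rose and 1.14% fell. The 2 other probe sets of Podxl changed by 0.32 (limma adjusted p = 0.414) and -0.04 (limma adjusted p = 0.887). Ptgis changed by 0.48 ± 0.10 in the left atrium (limma adjusted p = 0.0522). Aldh1a2 changed by 0.23 ± 0.15 in the right atrium (limma adjusted p = 0.449) and Tcf21 by 0.02 ± 0.14 (limma adjusted p = 0.95). Of 12 genes of the transition from epithelium to mesenchyme, Pdgfrb (0.82), Tgfb1 (0.55) and vimentin (Vim, 0.33) rose in the right atrium, none fell and 9 did not pass. The rise of Pdgfrb was seen on its brightest probe set, while the other 2 changed by -0.06 (limma adjusted p = 0.885) and 0.09 (limma adjusted p = 0.643). A dimmer Tgfb2 probe set rose (0.56, limma adjusted p = 0.00955), and its brightest changed by 0.38 (limma adjusted p = 0.0565). All of these are also made by cells other than epicardial ones. None of these 12, none of the 19 and none of the 18 other keratins and epithelial genes passed in the left atrium in the limma fit, and none of those 18 in the right. Averaged over both atria, 1 of those 18, Krt10, fell by 0.38 on the log2 scale and none rose. In that average 2 of the 19 rose and 1 fell, and 2 of the 12 rose and none fell. Of all 31042 probe sets, 1198 passed there in either direction. Macrophage markers moved as well: 3 of 6 rose in the right atrium, with a list mean of 7.68 to 7.80 on shunt against 7.14 to 7.23 on sham arrays. A dimmer probe set of Aif1, one of the 3, fell (-0.47, limma adjusted p = 0.0354). Their part in these changes was not tested.

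Within groups, most members varied together from array to array. After each group's mean was subtracted, 43 of 51 pairs of probe sets of different genes correlated above 0 over the 12 arrays, with a median Pearson r of 0.54 and a range of -0.26 to 0.94. The highest was that of Msln and Upk1b, and Krt8 and Krt18 correlated at 0.76. These correlations are a description across arrays that share the normalization, and the share over all pairs of probe sets was not counted. Wt1 and Lrrn4 enter by several probe sets, so the pairs are not independent. Genes outside the members, such as Pno1 and Lrrc1 (Pearson r = 0.94 each), also followed the mean of 5 members within groups. Right atrium sham replicate 3 was the lowest of its group for all 11 probe sets, where it was the lowest for 31.3% of all probe sets. Replicate 3 of the left atrium shunt group was the lowest of its group for 10 of the 11, all but Krt7, against 37.2% of all probe sets. Both arrays had the highest adipocyte mean of their group, but the other groups did not show this pattern. Left atrium sham replicate 2 had the highest adipocyte mean of its group (6.02) and was the highest for 9 of the 11 probe sets. The share of all probe sets highest on that array was not counted. In the right atrium shunt group replicate 2 had the highest adipocyte mean (5.72), and replicate 3 was the lowest for 7 of the 11, against 33.8% of all probe sets. The part of adipocytes in the members' values was not tested.

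**Figure D5:**
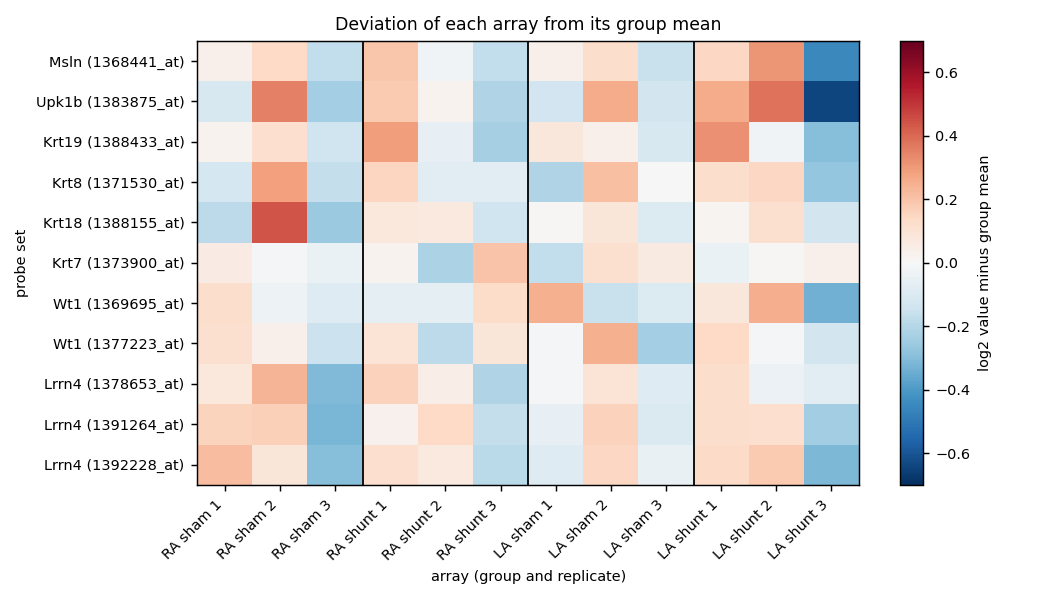
Log2 value minus the group mean (colour) of each probe set (rows) on each array (columns), with black lines between groups. The columns of right atrium sham replicate 3 and left atrium shunt replicate 3 are below the group mean for 11 and 10 of the 11 probe sets.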

How the data were processed

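Transcripts were measured on 12 Affymetrix arrays in right and left atrial appendages of sham and shunt rats, in 4 groups of 3 taken from the sample titles. The values deposited by the authors are log2 levels, 1 per probe set and array. Per the submitters' processing notes they come from RMA, which corrects background, quantile-normalizes and summarises probes, and its version is not given in the sources used here. Array medians lay between 5.44 and 5.47, so a change shared by most transcripts is not visible, and the number of arrays limits the precision. Of 31099 probe sets, 57 controls were left out. The supplied annotation named 1 gene for 20826 of the 31042 tested, several for 436 and none for 9780.

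The values were fitted as deposited in R 4.3.3 by limma 3.58.1, using lmFit, then contrasts.fit, then eBayes, with 1 mean per group over all 12 arrays, two-sided tests and Benjamini-Hochberg adjustment over all probe sets at 0.05. A gene of a list was counted by its brightest probe set, called genes of the 3 lists nearest to the members were named (at most 6 by size) with up to 4 others by level, and every member probe set was described. The members and lists were chosen with earlier results of these data known. Alternatives were a filter on dim probe sets (mean under 5.46, which 6 of the 11 members pass), quantile normalization again, median subtraction, eBayes with trend and robust options, weights per array, fits restricted to the compared groups, a replicate block, a gene's brightest probe set or mean, and the exclusion of each array in turn. The fit was tested on simulated data.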

Additional observations from a re-analysis of the deposited data

How the results depend on the processing

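Of 66 differences (11 probe sets in 6 comparisons), 17 passed the threshold, and 9 of these passed under every setting that tested them, apart from the fit with a lone right atrium shunt array: Msln, Krt19 and Lrrn4 1378653_at for left minus right in both sham and shunt rats, Krt8 and Krt7 for left minus right in sham rats, and Krt19 for the shunt effect averaged over both atria. No difference past the threshold, in the reported fit or in an alternative, changed direction. Of all 1364 refits, 50 changed sign, each for a difference below the threshold in both the reported fit and the refit. For the right atrium shunt effect, 1 member probe set passed. The count was 2 without dim probe sets, with trend and robust eBayes, with 1 probe set per gene and with the mean of probe sets, and 3 with array weights and in the fit of the right atrium arrays alone, the added ones being Wt1. It ranged from 0 to 3 over the exclusions of an array. For the left atrium shunt effect, 0 passed, and 1 (Krt19) did without dim probe sets (limma adjusted p = 0.0499), with trend and robust eBayes (limma adjusted p = 0.0404) and with the replicate block (limma adjusted p = 0.0211), with 0 to 1 over the exclusions. For the shunt effect averaged over both atria, 1 passed, against 2 without dim probe sets, with trend and robust eBayes, with 1 probe set per gene and with the mean of probe sets, 3 with array weights, and 1 to 3 over the exclusions. For left minus right in sham rats 8 passed, and in shunt rats 7. Without dim probe sets, where only 6 members were tested, 4 passed in each. Over the exclusions the counts were 5 to 9 in each. Upk1b in sham rats did not pass with trend and robust eBayes (limma adjusted p = 0.0706), nor Krt18 in shunt rats after quantile normalization again (limma adjusted p = 0.0626). With right atrium shunt replicate 1 kept alone, Upk1b in sham rats (limma adjusted p = 0.0526) and Krt18, Krt7 and Lrrn4 1391264_at in shunt rats (limma adjusted p = 0.313, 0.0817 and 0.251) did not pass. The cause of these moves was not tested, except that fewer members were tested without dim probe sets. With the replicate block the counts were 1, 1, 1, 0, 8 and 9 for the right, left and averaged shunt effects, their difference, and the atrial comparison in sham and then in shunt rats. The labels give same-numbered arrays nothing in common but the number, and deviations of same-numbered arrays correlated at 0.079 to 0.148 in the 6 pairs of left and right atrium of the same surgery and at -0.1 to 0.073 in the other 12 pairs. Only 3 of the 6 were above 0.1, but all 6 lay above the other 12. All 12 arrays correlated best with their own number in the other atrium of the same surgery. This is a hint of pairing from the data and not from the design, and the reported fit does not pair the samples. The replicate block ties same-numbered arrays across all 4 groups, sham and shunt alike. A fit that pairs left and right atrium within each surgery was not run, so the effect of such a pairing is not known. With the block, Upk1b (limma adjusted p = 0.0334) and Krt8 (limma adjusted p = 0.0358) passed for left minus right in shunt rats. For the difference between the atria's shunt effects, all probe sets past the threshold numbered 8, 3 with the block and 0 to 21 over the exclusions. Over all probe sets the right atrium count of 923 ranged from 148 to 1631 over the exclusions and the left atrium count of 233 from 77 to 554. Signal over background cannot be judged from these values, and 5 of the 11 member probe sets lay under the median level of all probe sets.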

Other observations

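Over the 12 arrays, the genes whose values ran closest to the mean of 5 members (Msln, Upk1b, Krt19, Wt1 and Lrrn4, 1 probe set each, centred) among 14209 other genes were Plac8 (Pearson r = 0.95), Apoe (0.947), Hoxd3 (0.945), Pdpn (0.933) and Clic3 (0.93). With each group's mean subtracted they were Pno1 (0.94), Lrrc1 (0.94), Ap3s1 (0.939), Bcl2l2 (0.93) and Cdh11 (0.927). Both rankings are descriptions over arrays that share the normalization, and the first includes the differences between groups. Pdpn, which encodes podoplanin, a surface glycoprotein of mesothelium and lymphatic endothelium, was named by this ranking and was in none of the lists. Pdpn was higher in the left atrium by 0.81 ± 0.13 in sham and 0.47 ± 0.13 in shunt rats. Plac8, which ranked first, was higher by 0.57 ± 0.13 and 0.53 ± 0.13. The ranking chose both genes by these same values, so their differences are a description and no independent result.

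The other uroplakin genes did not pass in any comparison. Upk1a lay at 2.86 to 3.25 on all arrays, Upk2 at 4.23 to 4.82, Upk3a at 4.21 to 4.94 and Upk3bl1, the gene next in name to Upk3b and chosen after its values were seen, at 3.29 to 4.23. Left minus right in sham rats they differed by 0.18, 0.24, 0.09 and 0.24 (limma adjusted p = 0.0873 to 0.677).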
